A study of Mus musculus with 2 samples.

Results

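The genes described here are 39 genes of fat cells and of fat synthesis, storage and release, followed in the gastrocnemius, a calf muscle. They were taken by symbol from a fixed list, and all 39 matched 1 gene identifier each among the 55536 annotated genes in the files. Total RNA was sequenced from 2 males of B6CASTF1/J, a hybrid mouse strain, at 4 days of age, with 300 ng of RNA per library. The labels name no treatment. The labels give separate replicate and animal numbers, and both libraries carry the same donor code. There is 1 group and no second condition, so levels were described within each library and the libraries were then compared. Each animal gave a single library, so animal, dissection and library effects cannot be told apart.

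Fat cells store triglyceride in a droplet coated by perilipins and release it as fatty acids through lipases, and they secrete hormones such as adiponectin and leptin. The nuclear receptor PPAR gamma and the C/EBP factors drive their differentiation. Muscle fibres use part of the same machinery: they keep small lipid droplets with their own perilipins and lipases and burn the fatty acids. Fat cells also lie between muscle bundles and under the skin, and bulk RNA of a dissected muscle can hold RNA of all of these. In bulk RNA, fewer cells of a type and less RNA per cell cannot be told apart.

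The libraries held 35281187 expected counts in annotated genes in replicate 1 and 32301531 in replicate 2. Contractile genes were high in both, with Acta1, skeletal alpha-actin, at 13742 and 12991 TPM (a transcript level normalised for length and depth). Genes of the epidermis stood apart between the libraries. The 11 epidermal markers summed to 17.1 TPM in replicate 1 and 1040 TPM in replicate 2, and 10 of them were over 2-fold higher in replicate 2. Their part in the ratios between the libraries was not tested.

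Upstream sequences are shown for the members whose ratio between the libraries was largest (Lep, Pck1 and Plin1), for Adipoq, the hormone gene that defines fat cells, and for a pair of members whose count ratio was near equal (Plin2 and Aqp7, the latter with a log2 TPM ratio of 0.43). They are RefSeq windows of the reference assembly GRCm38.p6, not of these hybrid animals, and stop before the annotated start of the gene. Capitals mark TTGCNNAA, the core bound by C/EBP factors, and AGGTCA, the hexamer bound by many nuclear receptors. Both strands were searched, so AGGTCA can also appear as TGACCT.
Lep, chr6:29059971-29060219, plus strand: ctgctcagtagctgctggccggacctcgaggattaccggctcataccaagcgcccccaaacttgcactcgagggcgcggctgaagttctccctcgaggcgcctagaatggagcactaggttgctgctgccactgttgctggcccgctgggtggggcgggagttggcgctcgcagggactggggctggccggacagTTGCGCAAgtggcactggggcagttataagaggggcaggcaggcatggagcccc
Pck1, chr2:173152823-173153047, plus strand: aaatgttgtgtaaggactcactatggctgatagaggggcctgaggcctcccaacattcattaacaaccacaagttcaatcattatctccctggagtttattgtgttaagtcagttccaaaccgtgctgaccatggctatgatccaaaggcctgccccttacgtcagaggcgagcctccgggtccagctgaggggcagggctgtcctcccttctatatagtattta
Plin1, chr7:79732904-79733026, minus strand: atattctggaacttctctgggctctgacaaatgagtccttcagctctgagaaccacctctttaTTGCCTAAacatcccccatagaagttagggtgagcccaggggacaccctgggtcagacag
Adipoq, chr16:23146286-23146535, plus strand: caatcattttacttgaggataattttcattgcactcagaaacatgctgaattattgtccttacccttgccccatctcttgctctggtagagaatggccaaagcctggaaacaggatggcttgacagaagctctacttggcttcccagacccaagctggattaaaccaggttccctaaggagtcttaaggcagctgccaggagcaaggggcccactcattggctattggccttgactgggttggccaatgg
Plin2, chr4:86670061-86670309, minus strand: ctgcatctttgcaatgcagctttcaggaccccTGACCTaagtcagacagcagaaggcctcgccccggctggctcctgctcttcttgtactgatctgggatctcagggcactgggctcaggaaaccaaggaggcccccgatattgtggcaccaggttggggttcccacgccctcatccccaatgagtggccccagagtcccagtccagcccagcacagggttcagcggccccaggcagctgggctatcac
Aqp7, chr4:41048140-41048386, minus strand: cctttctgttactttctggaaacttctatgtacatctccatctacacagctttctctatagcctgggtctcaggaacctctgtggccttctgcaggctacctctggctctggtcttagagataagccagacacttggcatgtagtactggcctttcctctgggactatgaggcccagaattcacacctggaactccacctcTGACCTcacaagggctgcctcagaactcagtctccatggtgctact
TTGCNNAA was present in the printed stretches of Lep and Plin1, and AGGTCA in those of Plin2 and Aqp7. CACGTG, the E-box core, was in none of the 6. In windows of 250 bases TTGCNNAA occurred in 9.56% of all 32851 promoter windows and in 4 of the 28 members that had a window (Cidec, Lep, Plin1 and Pparg). AGGTCA occurred in 14% of all windows and in 8 of the 28 members, and CACGTG in 6.02% and in 3 members. A member counted if any of its windows held the letters. The percentages count single windows, so they are not directly comparable with the numbers of members. A match describes these letters and is not a measured binding site.

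Most members were expressed. In both libraries 36 of 39 members reached 1 TPM, against 55.2% of 22015 protein-coding genes outside the mitochondrial genome. The 3 below that level in at least 1 library were Lep, Ucp1 and Adrb3. The median over the 39 members was 10.5 and 17.3 TPM in replicates 1 and 2 (13.9 ± 4.84, SD, n = 2). Car3 and Fabp4 were far above the rest, at ranks 47 and 216 among protein-coding genes by mean TPM.

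**Figure D1:**
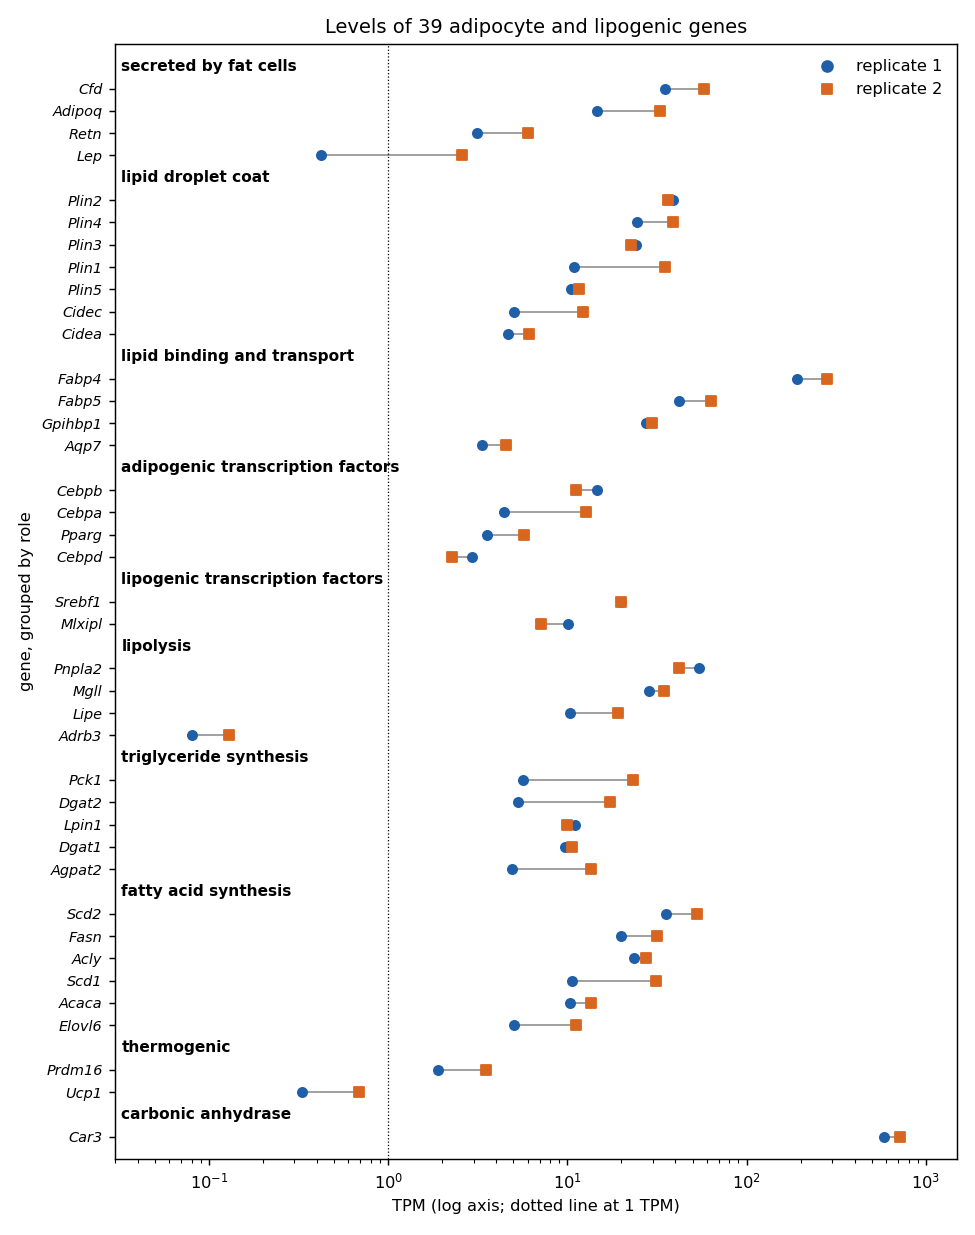
TPM of each of the 39 members in replicate 1 (circles) and replicate 2 (squares) on a log axis, grouped by role, with a grey line joining the libraries and a dotted line at 1 TPM. Car3 stands highest at 585 and 712 TPM, and Lep, Ucp1 and Adrb3 lie at or left of the dotted line in replicate 1.

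Between the libraries the members leaned to replicate 2. Ratios were computed for genes with a mean count of at least 10, which 38 members passed. Of these, 12 were over 2-fold higher in replicate 2 by depth-scaled counts, against 5.12% of 17998 genes. None of the 38 was over 2-fold lower, against 1.06% of genes, and in either direction 6.18% of genes passed 2-fold. At a mean count of at least 100, 11 of 37 members were over 2-fold higher, against 1.57% of genes. At that count 0 members were over 2-fold lower, against 0.113% of genes. Most of the 1112 genes past 2-fold at the lower minimum, 922, were also higher in replicate 2. The direction alone therefore does not set the members apart. The median log2 ratio of replicate 2 over replicate 1 was 0.52 over the members and 0.01 over all 17998 genes. The counting interval (95%, exact, counting error only) lay wholly above equal levels for 27 members, against 18.8% of genes, and wholly below for 4, against 17.5%. For the remaining 7 of the 38 it included equal levels. Such intervals narrow as counts rise. A mean count of 100 was reached by 37 of the 38 members but by 12421 of the 17998 genes. The interval shares were not computed at that count, so they are not matched for depth. Adrb3, the only member below a mean count of 10, had 6 counts in replicate 1 and 2 in replicate 2.

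**Figure D2:**
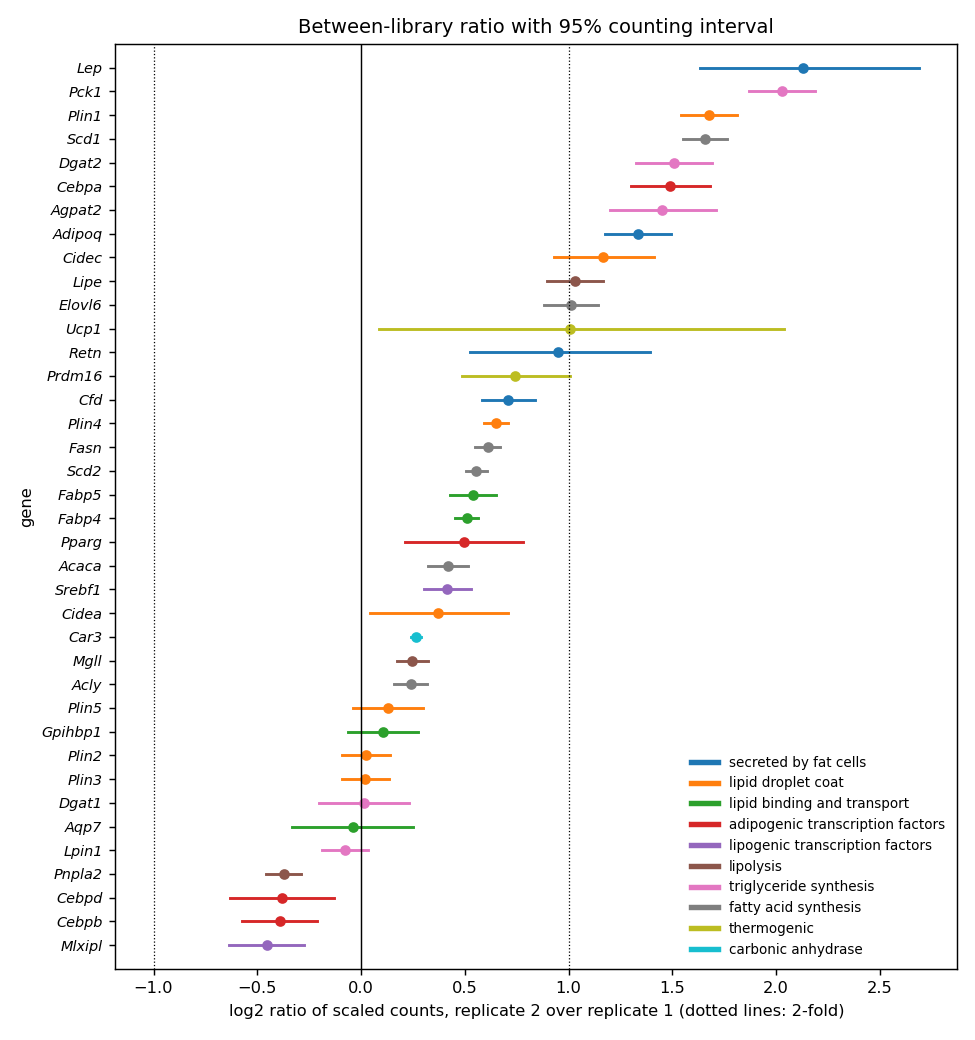
Log2 ratio of scaled counts, replicate 2 over replicate 1, for 38 members, all but Adrb3 (points), with 95% counting intervals (lines) and colours by role. Lep is highest at 2.13, Mlxipl is lowest at -0.45, and 12 points lie right of the 2-fold line.

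**Figure D3:**
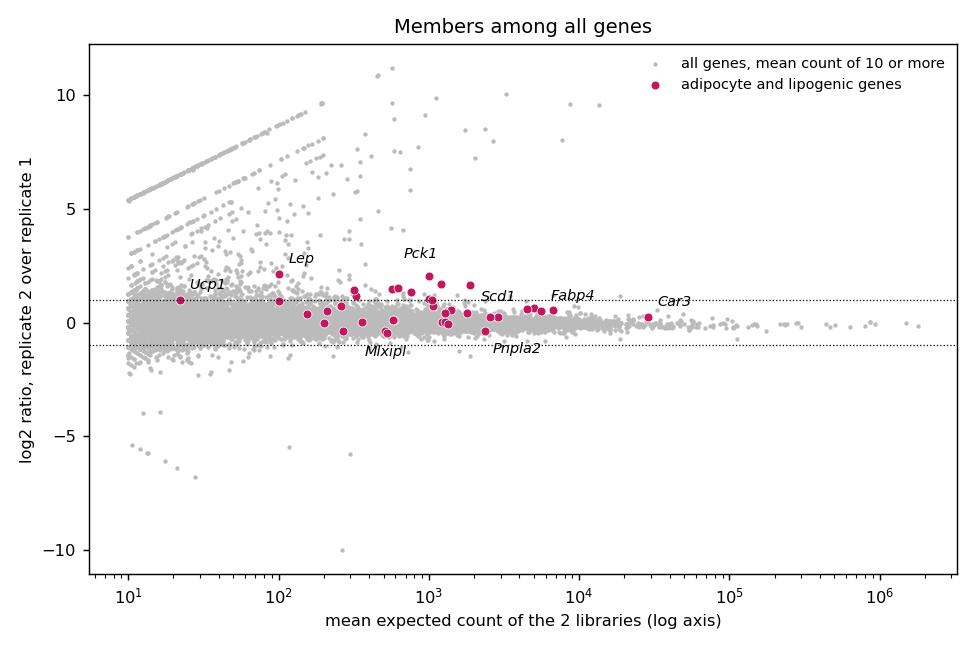
Log2 ratio against mean expected count (log axis) for all 17998 genes that passed the count minimum (grey) and the 38 members (coloured), with dotted lines at 2-fold. The 12 members past 2-fold all lie on the side of replicate 2, as do 922 of the 1112 genes past 2-fold.

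The 4 members that encode proteins secreted by fat cells were all higher in replicate 2. By any amount, 51% of the 17998 genes were higher there. Adipoq (ENSMUSG00000022878.5, chr16:23146536-23158028, plus strand), adiponectin, had 450 and 1071 counts and a level of 14.6 and 32.9 TPM in replicates 1 and 2. Its scaled counts were 2.52-fold higher in replicate 2 (log2 ratio 1.33, interval 1.17 to 1.50). Lep, leptin, the hormone that reports fat stores, stood at 0.42 and 2.59 TPM, from 39 and 163 counts. Its ratio was the largest of the list at 4.38-fold (2.13, interval 1.63 to 2.69). Cfd, the complement factor adipsin, was the highest of the 4, at 34.97 and 58.1 TPM (log2 ratio 0.71). Retn, resistin, stood at 3.11 and 6.05 TPM (0.95, interval 0.53 to 1.39). Its ratio was under 2-fold, but the interval reached past that line.

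Lipid droplet genes differed among themselves. Plin1, the perilipin of fat cells, had 601 and 1815 counts, or 10.8 and 34.98 TPM, and was 3.20-fold higher there (log2 ratio 1.68, interval 1.54 to 1.81). Cidec, which fuses droplets in white fat, stood at 5.04 and 12.2 TPM (2.25-fold, interval 0.93 to 1.41 on the log2 scale). Plin4, made in fat and in muscle, stood at 24.4 and 38.9 TPM (log2 ratio 0.65). These 3 droplet genes were higher in replicate 2 beyond counting error, and only Plin1 and Cidec of the 7 passed 2-fold. Plin2, found on droplets of most cells, stood at 38.9 and 36.5 TPM, and its log2 ratio of 0.03 had an interval of -0.09 to 0.14. Plin3, also widespread, stood at 24.1 and 22.6 TPM (0.02, interval -0.09 to 0.13), and Plin5, the perilipin of muscle, heart and other tissues that burn fat, at 10.5 and 11.6 TPM (0.13, interval -0.04 to 0.30). No difference between the libraries was detectable for these 3 at this depth. Cidea, a droplet protein of brown fat and sebaceous glands, stood at 4.68 and 6.14 TPM (0.37, interval 0.04 to 0.71).

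Plin4 and Plin5 lie 1.80 kb apart on the minus strand of chromosome 17, with Plin3 a further 160 kb away, and their ratios differed all the same. Plin4 had the higher log2 ratio of the 3, and its interval of 0.59 to 0.71 did not overlap those of Plin5 and Plin3. Of the 3, only Plin4 overlaps another gene, Hdgfl2 on the opposite strand (mean count 1235.5 against 5020.5). Part of the Plin4 counts may therefore be uncertain, and how much was not measured. Plin2 held 35.8% of the summed perilipin TPM in replicate 1 and 25.3% in replicate 2 (30.5% ± 7.44, SD, n = 2). Plin1 held 9.97% and 24.2% and Plin4 22.5% and 26.9%. Plin2 led in replicate 1 by both quantifications. In replicate 2 the leader depended on the quantification: Plin4 by the gene table and Plin1, at 27.0%, in the quantification made directly from reads, with Plin1, Plin2 and Plin4 close together in both.

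**Figure D4:**
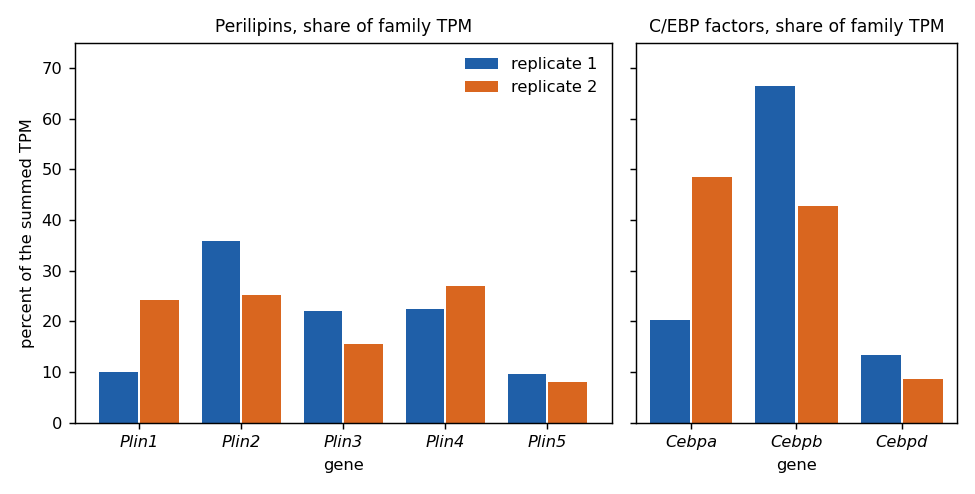
Percent of the summed TPM of the 5 perilipin genes (left) and of the 3 C/EBP genes (right) held by each gene, in replicate 1 (blue) and replicate 2 (orange). Plin1 goes from 9.97% to 24.2% and Cebpa from 20.3% to 48.5% between the libraries.

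Lipid-binding genes were among the highest members. Fabp4, the fatty acid carrier of fat cells that capillary endothelium also makes, stood at 192 and 281 TPM (236 ± 62.6, SD, n = 2). Fabp5, the carrier known from skin as well as from endothelium and macrophages, stood at 41.7 and 63.2 TPM. Fabp4 exceeded Fabp5 by 2.17 ± 0.04 on the log2 TPM scale (SD, n = 2). The ratio differed little between the libraries although both genes were higher in replicate 2. Their log2 ratios between the libraries were 0.51 (interval 0.45 to 0.56) and 0.54 (0.43 to 0.65), which overlap. The genes lie 187 kb apart on chromosome 3. The leading transcript of each shared 0 stretches of 100 bases with any transcript of the other. The expected counts of Fabp5 were nonetheless not whole numbers (1183.66 and 1625.04). Some of its reads were thus shared out by estimation, and with which genes was not measured.

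Gpihbp1, the capillary protein that anchors lipoprotein lipase, stood at 27.3 and 29.8 TPM (log2 ratio 0.11, interval -0.06 to 0.28). Aqp7, the glycerol channel of fat cells that muscle and endothelium also make, stood at 3.35 and 4.54 TPM, with a count ratio of -0.04 (interval -0.33 to 0.25). No difference in counts was detectable for either. The 8 endothelial markers summed to 261 and 274 TPM.

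The adipogenic transcription factors did not move together. Cebpa, the C/EBP factor of mature fat cells, stood at 4.44 and 12.7 TPM and was 2.81-fold higher in replicate 2 (log2 ratio 1.49, interval 1.30 to 1.68). Pparg, the master regulator of fat cells, stood at 3.54 and 5.71 TPM (0.49, interval 0.21 to 0.78). Cebpb and Cebpd, which act early in differentiation and respond to stress and hormones in many cells, went the other way. Cebpb stood at 14.6 and 11.2 TPM (-0.39, interval -0.58 to -0.21) and Cebpd at 2.93 and 2.28 TPM (-0.38, interval -0.63 to -0.13). The share of Cebpb in the summed TPM of the 3 C/EBP genes was 66.4% in replicate 1 and 42.8% in replicate 2. Cebpb overlaps Tmem189 and Cebpd overlaps Spidr on the opposite strand. Part of their counts may therefore be uncertain, and how much was not measured.

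The regulators of lipid synthesis were split too. Srebf1, which switches on fatty acid and cholesterol genes, stood at 19.8 and 19.96 TPM, although its scaled counts were higher in replicate 2 (log2 ratio 0.42, interval 0.30 to 0.53). Its opposite-strand neighbour Rai1, whose span overlaps, had more counts (mean 2274 against 1281). How far this affects the value was not measured, so it may be uncertain. Mlxipl, the carbohydrate-responsive factor ChREBP, stood at 10.03 and 7.14 TPM, the lowest ratio of the 38 (-0.45, interval -0.64 to -0.27).

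The 6 fatty acid synthesis members were all higher in replicate 2, to unequal degrees. Scd1, a desaturase that makes monounsaturated fatty acids in fat, liver and sebaceous glands, stood at 10.6 and 31.3 TPM and was 3.15-fold higher (log2 ratio 1.66, interval 1.55 to 1.76). Elovl6, which lengthens palmitate, stood at 5.02 and 11.2 TPM (1.01, interval 0.88 to 1.14). Scd1 and Elovl6 were the 2 of 6 past 2-fold, and Elovl6 lay close to that line. Fasn, fatty acid synthase, stood at 19.8 and 31.7 TPM (0.61), Acaca, which makes its malonyl-CoA, at 10.4 and 13.6 TPM (0.42), and Acly, which supplies acetyl-CoA from citrate, at 23.6 and 27.4 TPM (0.24). Their intervals all lay above equal levels, at 0.55 to 0.67, 0.32 to 0.52 and 0.16 to 0.32.

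Scd2, the desaturase of brain and of early postnatal tissues, was the higher paralog. It stood at 35.6 and 53.1 TPM, and exceeded Scd1 by 1.74 on the log2 TPM scale in replicate 1 and by 0.76 in replicate 2 (1.25 ± 0.69, SD, n = 2). The direction was the same in both libraries. The size differed between them, as Scd1 differed more than Scd2 (log2 ratio 0.56 for Scd2). The genes lie 87.6 kb apart on chromosome 19 on opposite strands. Only 1.01% of the 100-base stretches of the leading Scd1 transcript occurred in any Scd2 transcript. The expected counts of both were not whole numbers, so some reads were shared out by estimation, and how many was not measured.

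Of the 5 triglyceride synthesis genes, 3 were over 2-fold higher in replicate 2. Pck1 (ENSMUSG00000027513.11, chr2:173153048-173159273, plus strand), which makes glycerol backbone in fat as well as glucose in liver, had 411 and 1584 counts, or 5.65 and 23.2 TPM. Its scaled counts were 4.08-fold higher in replicate 2 (log2 ratio 2.03, interval 1.87 to 2.19). Dgat2, a late enzyme of triglyceride synthesis, stood at 5.31 and 17.3 TPM (2.84-fold, interval 1.33 to 1.69 on the log2 scale). Agpat2, which acts on lysophosphatidic acid and is required for fat tissue, stood at 4.92 and 13.5 TPM (2.73-fold, interval 1.20 to 1.71). Agpat2 overlaps the endothelial gene Egfl7 on the opposite strand, which had more counts (mean 1490 against 319) and a log2 ratio of 0.20. Their spans meet only between positions 26593057 and 26593120 of chromosome 2.

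Enzymes of the same pathway without this gap were Dgat1 and Lpin1. Dgat1, which catalyses the same step as Dgat2, stood at 9.65 and 10.6 TPM (log2 ratio 0.01, interval -0.20 to 0.23). Lpin1, the phosphatidate phosphatase abundant in muscle, stood at 11.1 and 10 TPM (-0.08, interval -0.19 to 0.03). Dgat2 over Dgat1 was -0.85 on the log2 TPM scale in replicate 1 and 0.71 in replicate 2 (-0.07 ± 1.10, SD, n = 2). Which of the pair was higher therefore differed between the libraries, and the mean lies within their spread.

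Lipases were led by the gene of muscle and fat alike. Pnpla2, adipose triglyceride lipase, which takes the first fatty acid from triglyceride, stood at 54.4 and 41.9 TPM and was lower in replicate 2 (log2 ratio -0.37, interval -0.46 to -0.29). Lipe, hormone-sensitive lipase, which acts next, stood at 10.3 and 19.0 TPM (1.03, interval 0.90 to 1.17), and its log2 ratio by TPM was 0.87, under 2-fold. Mgll, which completes the breakdown, stood at 28.6 and 34.8 TPM (0.25, interval 0.17 to 0.32). The order of level was Pnpla2, Mgll and Lipe in both libraries. Adrb3, the adrenergic receptor of fat cells that triggers lipolysis, was near the detection limit at 0.08 and 0.13 TPM.

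Thermogenic genes were low. Ucp1, the uncoupling protein that defines active brown fat, stood at 0.33 and 0.69 TPM, from 15 and 29 counts. Its log2 ratio of 1.01 had an interval of 0.09 to 2.04, and it was 0.68 directly from reads, so its place past 2-fold is not firm. Prdm16, a brown fat and stem cell regulator, stood at 1.90 and 3.52 TPM (0.74, interval 0.49 to 1.00). Car3, a carbonic anhydrase made in both fat cells and slow muscle fibres, was the highest member at 585 and 712 TPM (649 ± 90.1, SD, n = 2), with a log2 ratio of 0.26 (interval 0.24 to 0.29).

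Of the 12 members past 2-fold, 8 had an interval wholly above 2-fold: Lep, Pck1, Plin1, Scd1, Dgat2, Cebpa, Agpat2 and Adipoq. That holds for 3.07% of all genes past the count minimum. Cidec, Lipe, Elovl6 and Ucp1 were the 4 whose interval reached below 2-fold. The 8 take in secreted, droplet, transcription factor and synthesis genes. The lipid-binding, lipogenic factor, lipolysis and thermogenic groups gave none, but they hold only 4, 2, 3 and 2 tested members. With so few members and a share of 3.07% over all genes, this does not set those groups apart.

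Other genes of the pathway had lower median ratios than the 39 members, with single genes among the widest gaps. Of 15 further fat cell genes 14 reached 1 TPM in both libraries, 2 were over 2-fold higher in replicate 2 and none was over 2-fold lower, with a median log2 ratio of 0.28. The 2 were Trarg1, a partner of the glucose transporter of fat and muscle, at 1.36 and 5.26 TPM (log2 ratio 1.93, interval 1.65 to 2.23), and Lgals12, a droplet-bound galectin of fat cells, at 1.21 and 2.73 TPM (1.09, interval 0.72 to 1.48). The highest of the 15 were genes that muscle or its capillaries also use. Cd36, a fatty acid receptor, stood at 161 and 185 TPM, Lpl, lipoprotein lipase, at 102 and 140 TPM, and Gpd1, which makes glycerol phosphate, at 82.0 and 82.2 TPM.

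All 20 further enzymes and regulators of fat synthesis reached 1 TPM, with a median log2 ratio of 0.11. Insig1, which restrains SREBP and is itself its target, stood at 17.3 and 34.5 TPM, and its log2 ratio of 1.00 (interval 0.90 to 1.11) made it the only 1 of the 20 past 2-fold, by a margin within counting error. The highest were Acsl1, an acyl-CoA synthetase of muscle and fat, at 90.4 and 110 TPM, Agpat3, an acyltransferase like Agpat2, at 94.4 and 98.8 TPM, and Gpam, which starts glycerolipid synthesis, at 32.3 and 28.0 TPM. Of 9 brown fat genes 2 were past 2-fold. Kcnk3, a potassium channel, stood at 0.86 and 1.75 TPM (1.01, interval 0.64 to 1.39), and Elovl3, an elongase of brown fat, sebaceous gland and hair follicle, had 0 and 51 counts, at least 18-fold higher when replicate 1 is set to 3 counts. The highest of the 9 were Cox7a1, a respiratory chain subunit of muscle and brown fat, at 109 and 84.0 TPM, and Cpt1b, which admits fatty acids to mitochondria in the same tissues, at 85.5 and 72.7 TPM. Ebf2, a factor of brown fat precursors, followed at 11.9 and 12.8 TPM.

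**Figure D5:**
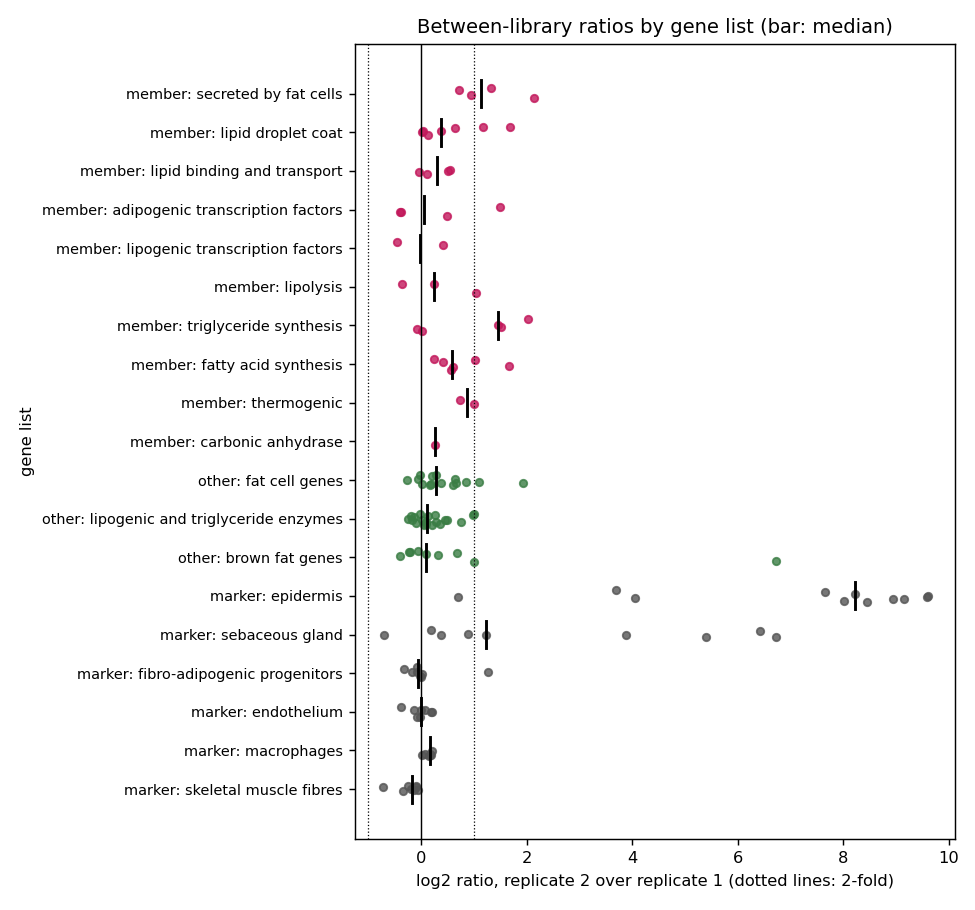
Log2 ratio of replicate 2 over replicate 1 for each gene past the count minimum (points) in the member groups, the other pathway lists and the cell marker lists, with the median of each list as a bar and dotted lines at 2-fold. Epidermal markers reach 9.60, whereas the endothelial points lie between -0.38 and 0.20 and all 8 muscle fibre points lie below 0. Points of genes with 0 counts in replicate 1 (Elovl3, Dsg3, Scd3 and Awat1) depend on the prior count.

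Markers of other cells were compared in the same way. All 8 muscle fibre markers were lower in replicate 2, with log2 ratios from -0.73 (Myh4) to -0.07 (Ryr1), and their sum was 43643 and 39812 TPM. The 8 markers of fibro-adipogenic progenitors, the interstitial cells that can become fat cells, summed to 558 and 543 TPM, and only Cxcl14 among them passed 2-fold (2.28 and 5.62 TPM). Dcn and Pdgfra, also of that list, stood at 308 and 307 TPM and at 31.5 and 32.6 TPM. The 7 macrophage markers summed to 93.5 and 106 TPM.

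Skin markers were higher in replicate 2 as well. Krt1, a keratin of the differentiated epidermis, stood at 0.33 and 269 TPM, Krt10 at 3.33 and 282 TPM, and Krt5, a basal keratin, at 0.16 and 60.8 TPM. Dsg3, an adhesion protein of the epidermis, had 0 and 144 counts. The 10 sebaceous gland genes, which include the member Cidea, summed to 28.8 and 58.9 TPM. The highest in replicate 1 were Mgst1 (12.97 and 25.1 TPM in replicates 1 and 2), Soat1 (9.09 and 10) and Cidea (4.68 and 6.14). Of the 9 past the count minimum, 5 were over 2-fold higher in replicate 2. Among them Krt79 stood at 0.19 and 13.6 TPM, and Scd3, the desaturase of sebaceous glands, had 0 and 50.6 counts in the gene table but 0.29 and 1.08 TPM directly from reads, so its 0 rests on 1 quantification. Awat1, a wax synthase that defines the gland, had 0 and 20 counts, and Mc5r went the other way at 1.59 and 0.99 TPM. The part of skin, of sebaceous gland or of attached fat in the ratios of the members was not tested.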

How the data were processed

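Gene and transcript tables of 2 total RNA libraries were used. Expected counts and TPM in the deposited gene and transcript tables were made by the authors from alignments to mm10 with GENCODE M21, per the deposited notes. Their column names are those RSEM writes. Deposited transcript tables hold, in percent, the share of each transcript in its gene, per the file headers. A further deposited table, quantified from the reads without alignment files, holds estimated counts and TPM. Program versions and strand settings are not stated in what was used here.

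Ratios between the libraries took expected counts divided by effective library sizes (TMM factors, edgeR 4.0.16 under R 4.3.3). The prior count was 0.5 and the mean count minimum 10. Counts were rounded for TMM, for DESeq2 size factors (version 1.42.0) and for intervals, which are 95% Clopper-Pearson limits on how a gene's counts split between libraries and cover counting error only. The limit behind a count of 0 was 3 counts per library. Log2 ratios of TPM used a pseudocount of 0.1. Spike-ins and unnamed entries were left out. The ratio procedure was tested on simulated data. With 2 values an exact sign-flip test gives p = 0.5 at best, so no test was made. Members, lists and alternatives were chosen with earlier results of these data known. All members are named, with the 3 highest and every gene past 2-fold of the other pathway lists and up to 3 genes of a marker list. Dsg3, Mc5r, Mgst1, Soat1 and the marker values of Cidea were added after their values were seen. Transcripts are named where the leading one holds under 90 percent of its gene or the quantifications differ, with Car3, Fabp4 and Pck1 as examples of the rest. Promoters matched by symbol for 28 of 39 members. Ratios from TPM were added as an alternative after seeing the data.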

Additional observations from a re-analysis of the deposited data

How the results depend on the processing

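With DESeq2 size factors, library totals, spike-in totals, another count minimum, a prior count of 5, the quantification made directly from reads or TPM ratios, the members' median log2 ratio stayed between 0.50 and 0.60. The members over 2-fold higher in replicate 2 numbered 10 to 13. Elovl6 (0.99) and Ucp1 (0.99) were under 2-fold with DESeq2 size factors. Lipe (0.87) and Ucp1 (0.88) were under it by TPM ratios, and Ucp1 also with a prior count of 5 (0.83) and directly from reads (0.68). Retn passed it with spike-in totals (1.03). With no count minimum 1 member, Adrb3, counted as over 2-fold lower, from 6 and 2 counts. The median TPM of the members was 21.2 by the quantification made directly from reads and 33.3 when rescaled to protein-coding genes, so levels depend on the quantification. In counts not divided by length, Scd2 over Scd1 was 2.00 and Fabp4 over Fabp5 2.00 on the log2 scale, and the Plin2 share of perilipins was 13.5%. Directly from reads Fabp4 over Fabp5 was 2.05. Dgat2 over Dgat1 was 0.61 in counts not divided by length. Of 303 ratios of single members under these settings, 14 left their counting interval and 0 of the called ones changed sign. Another count minimum leaves a ratio as it was, so those settings could not move it. The scalings put the median log2 ratio of all genes between -0.02 and 0.09, too small a shift to reverse a ratio past 2-fold. Leaving out a library leaves no ratio between libraries, so none was computed. Without replicate 1 or without replicate 2 the members at 1 TPM numbered 37 and 36. No paired analysis was possible because there is 1 group.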

Other observations

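The 2 quantifications, from alignments and directly from reads, named the same leading transcript in both libraries for 24 of 39 members. Car3-201 held 98.3% of its gene's transcripts in both libraries by the alignment-based table, Fabp4-201 98.4% and 98.7%, and Pck1-201 94.7% and 92.5%. Of the 36 members at 1 TPM or more, 27 had a leading transcript under 90% or quantifications that differed. All percentages below are for replicates 1 and 2 by the alignment-based table unless said otherwise.

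Both quantifications named the same transcript, over the mean of the libraries, for 18 of the 27. For 13 of these it also led in each library by both. Plin3, Plin5, Cidec, Mlxipl and Acly did not keep the same leader throughout. Plin3 and Plin5 have 2 transcripts each, and in replicate 2 the other one led by the alignment-based table. Among hormone and droplet genes these were Adipoq-201 (81.5% and 100%), Cfd-201 (88.4% and 83.6%), Plin1-206 (46.2% and 51.5%), Plin2-201 (44.6% and 53.1%), Plin3-202 (54.8% and 49.0%), Plin5-201 (59.2% and 44.7%) and Cidec-202 (35.3% and 53.5%). Transport and regulator genes had Aqp7-201 (68.0% and 45.1%), Gpihbp1-201 (76.1% and 78.2%), Cebpa-201 (74.7% and 71.6%) and Mlxipl-201 (34.97% and 35.9%). Enzyme genes had Pnpla2-201 (54.2% and 58.0%), Dgat1-201 (55.0% and 45.3%), Dgat2-201 (100% and 86.3%), Acaca-201 (51.3% and 48.2%), Acly-201 (48.1% and 35.6%), Scd1-201 (60.7% and 67.8%) and Elovl6-201 (80.7% and 69.2%). Plin1 and Cidec were both past 2-fold between the libraries. Their forms leading over the mean of the libraries held between 35.3% and 53.5% of the gene. Pnpla2-201 is annotated under nonsense-mediated decay and not as protein-coding, so its share is not a share of coding RNA.

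The quantifications named different transcripts for 9 of the 27, and also for Adrb3. Pparg had Pparg-204 (48.2% and 37.8%) from alignments and Pparg-202 (38.7% and 30.8%) directly from reads. Plin4 had Plin4-202 (99.0% and 100%) and Plin4-201 (56.4% and 58.2% directly), whose annotated lengths are 5756 and 5755 bases. Lipe had Lipe-202 (45.4% and 61.0%) and Lipe-208 (47.9% and 48.5% directly), and Mgll had Mgll-204 (73.3% and 74.95%) and Mgll-201 (53.6% and 45.0% directly). For these genes the form present could not be told from the tables. The other differing pairs, alignment-based first, were Srebf1-201 and Srebf1-210, Agpat2-202 and Agpat2-201, Lpin1-201 and Lpin1-202, Fasn-201 and Fasn-205, and Prdm16-202 and Prdm16-209. Agpat2-202 is annotated as a processed transcript and not as protein-coding.

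For 3 members the TPM ratio and the count ratio differed by over 0.3 on the log2 scale. Srebf1 had 0.01 by TPM and 0.42 by counts, Aqp7 0.43 by TPM and -0.04 by counts, and Adrb3 0.35 by TPM and -1.31 by counts. Plin2, Fabp5, Acaca, Scd1 and Scd2 were the 5 members whose expected counts were not whole numbers. Of the 39 members, 17 overlap another annotated gene, and in 7 cases the neighbour had at least 0.1 times the member's count. Overlap was judged by gene spans, and its effect on the counts was not measured.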
